A study of Mus musculus with 10 samples.

Results

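The 30 genes described here encode the proteins that carry fatty acids into mitochondria and peroxisomes and break them down there by beta-oxidation. They were taken as a fixed list of carnitine shuttle, mitochondrial and peroxisomal oxidation genes, and all 30 were found among the 55414 genes counted. By known location, 17 are mitochondrial and 9 peroxisomal. The remaining 4 (Crat, Ech1, Eci2 and Acot1) act in both organelles or in the cytosol and were kept apart.

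RNA was sequenced from jejunum (the small intestine between duodenum and ileum) of male C57BL/6J mice. Both groups carried RetSat flox/flox, received tamoxifen for 5 days and then a high-fat diet (60% of energy from fat) for 14 weeks. The 5 RetSat ko libraries also carried villin-Cre-ERT2, which the 5 control libraries lacked. The villin promoter drives this tamoxifen-activated Cre in the intestinal epithelium, so other cells of the tissue keep the floxed gene. Loss of Retsat and presence of active Cre go together and cannot be told apart. The ages of the mice are not given in the sources used here, and whether each library came from a different mouse is not stated. The p-values therefore set the group difference only against the scatter between these libraries, which may be technical.

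Beta-oxidation shortens an acyl-CoA chain stepwise through dehydrogenation, hydration, a second dehydrogenation and thiolysis. Mitochondria take up long chains through the carnitine shuttle and pass the electrons to the respiratory chain. Peroxisomes take very long and branched chains through ABC transporters, and their first step makes hydrogen peroxide instead. Enterocytes, the absorptive cells of the jejunum, take up dietary fat and oxidize part of it. The nuclear receptor PPAR alpha is a known activator of many of these genes in mouse tissues.

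Many peroxisomal enzymes are recognized for import by a tripeptide at the very end of the protein, typically serine-lysine-leucine or a close variant. Among the main transcripts of GENCODE M21 (GRCm38), 8 of the 30 genes ended in codons for such a variant. It was counted as serine, alanine, proline or cysteine, then lysine, arginine or histidine, then leucine. They were 0 of 17 mitochondrial genes, 5 of 9 peroxisomal genes and 3 of the 4 others, against 123 of 21622 protein-coding genes (0.569%). Location was assigned with such signals known, so this describes the grouping and is no test of it. The last 30 coding bases before the stop codon are shown for 7 of the 8, because they show this signal in the genes themselves. They do not divide the organelles. Crat, Ech1 and Eci2 carry the ending but were kept apart, and the peroxisomal Acaa1a, Acaa1b, Abcd3 and Pex11a lack it. Capitals mark the last 3 codons.
Ehhadh: agcttggcaggaccccatagcAGCAAACTG
Acot8: ttgaagcctcaggtgtcagagAGTAAGCTA
Ech1: gacacaaaaagcatcaccttcTCCAAGCTC
Decr2: ctagagtttgaatccttctctGCTAAGCTG
Crat: ctactccagaaccaccccaggGCCAAGCTC
Crot: atgatacagctgatgaacaccGCTCATCTT
Eci2: atgagcttcgtctccagaaaaCCAAAGCTG
The codons of Ehhadh, Acot8 and Ech1 spell the serine-lysine-leucine form by different synonymous codons, and the others spell variants of it.

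Some members could not be counted cleanly. The peroxisomal thiolase genes Acaa1a and Acaa1b, both on chromosome 9, differ at 44 of 1275 coding bases (96.5% identity). Their first 90 coding bases, which include the start of the protein where thiolase carries its import signal, differ at the 3 positions in capitals.
Acaa1a: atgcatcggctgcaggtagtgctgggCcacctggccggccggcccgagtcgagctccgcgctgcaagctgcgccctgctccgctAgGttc
Acaa1b: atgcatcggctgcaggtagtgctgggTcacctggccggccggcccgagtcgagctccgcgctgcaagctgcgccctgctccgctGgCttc
Reads that fit both copies equally are left out by the counting default. Acot1 and Acot2, neighbours on chromosome 12, shared 95.1% identity over 1274 transcript bases. Hadhb shared 99.8% identity over 1428 of its 2033 transcript bases with the pseudogene Gm13910. Exons of Etfb overlapped those of Gm45233 on the same strand over 53% of their length. Exons of Acadvl overlapped those of Dvl2 on the opposite strand over 42.9%, and the counting command sets no strand. Levels of these genes are therefore uncertain. Shared reads may have been lost, and reads that belong to a partner cannot be told apart.

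Library totals ran from 102844680 to 128730695 counts, and no member had fewer than 1895 counts in any library, so counting error is small beside the spread between libraries. Retsat, the targeted gene, averaged 19.6 ± 7.76 CPM in RetSat ko and 440.5 ± 101 CPM in control (SD, n = 5 each), where CPM is counts per 1000000 of the scaled library. Its log2 fold change was -4.49 ± 0.277 (SE; edgeR adjusted p = 0.000101). Of all 18654 genes tested with edgeR (quasi-likelihood, threshold 0.05 after adjustment), 6 were called, 4 higher (0.0214%) and 2 lower (0.0107%) in RetSat ko. No member was among them. DESeq2 called 0 of 30 members too (lowest adjusted p 0.155), against 0.476% of its 11773 genes lower and 0.569% higher.

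All 30 members passed the filter on low counts through their level in both groups, and none passed the adjusted threshold in either direction (edgeR adjusted p from 0.322 to 0.756). The log2 fold change of RetSat ko over control was below 0 for 29 of 30, with a median of -0.19 and a range of -0.40 to 0.07. Of all genes tested, 46.1% were below 0, 53.9% above it, and the median was 0.02. Genes at least as abundant as the lowest member (22.8 CPM) leaned the same way, with 63.1% of 6189 below 0 and a median of -0.05. An unadjusted p under 0.05 was reached by 8 members, all lower in RetSat ko (Crat, Acadm, Decr2, Acadvl, Ehhadh, Hadha, Acaa1b and Hsd17b4). The share of all tested genes that were lower at that level was 5.45%, and 11.9% among the equally abundant genes. No member was higher at that level, against 6.79% of all tested genes. That count of 8 depended on single libraries. It was 1 without RetSat ko 2, 1 without RetSat ko 3, 2 without control 3, 3 without control 1, 13 without control 4 and 15 without RetSat ko 1. The share of all genes at an unadjusted p under 0.05 was not counted in these refits. The count of members may move with that share, since genes called over all rose from 6 to 846 without RetSat ko 1. In none of the 30 did all RetSat ko libraries lie below all control libraries, which held for 0.729% of all tested genes. No test was made over the members as a set or on their sums and means, because they were chosen with results of these data known.

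**Figure D1:**
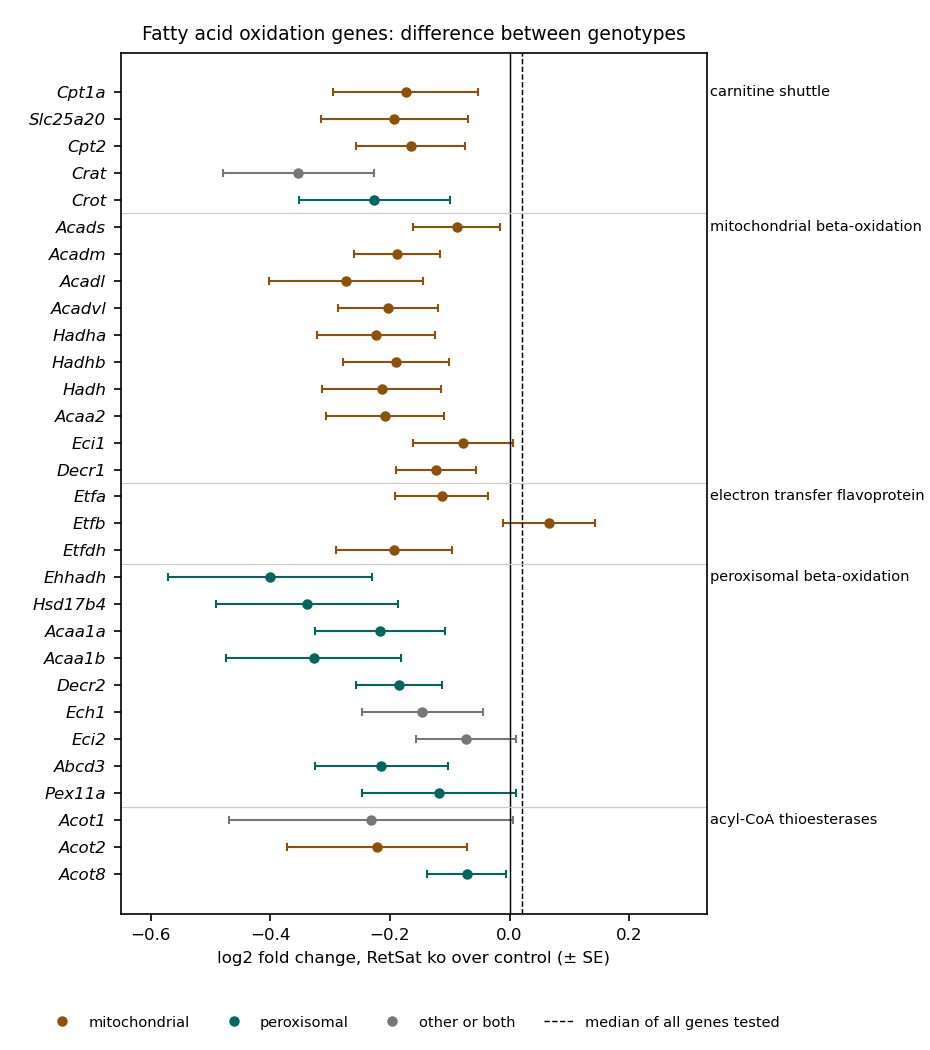
Log2 fold change of RetSat ko over control for each of the 30 genes (edgeR; bars are SE; 5 libraries per group), ordered by role and coloured by known location. All points but Etfb lie left of 0, between -0.40 and -0.07, and the dashed line is the median of all genes tested (0.02).

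The carnitine shuttle came out below 0 for 5 of 5 genes, with a median log2 fold change of -0.19. Cpt1a (chromosome 19, 3372334 to 3435733, plus strand, GRCm39) encodes the outer-membrane carnitine palmitoyltransferase that commits long chains to mitochondria. It had 250, 227, 184, 306 and 269 CPM in RetSat ko 1 to 5, against 299, 244, 301, 284 and 267 CPM in control 1 to 5. RetSat ko 4 was the highest library of all 10 and RetSat ko 3 the lowest, so the groups overlapped widely (log2 fold change -0.17 ± 0.121 SE, edgeR adjusted p = 0.578).

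Crat (chromosome 2, 30290483 to 30305825, minus strand), which moves short acyl groups between CoA and carnitine, had the smallest p of the members. It had 276, 218, 207, 256 and 254 CPM in RetSat ko, against 338, 267, 392, 250 and 301 CPM in control. Controls 1, 3 and 5 stood above every RetSat ko library, while controls 2 and 4 lay within the RetSat ko range. This gave a log2 fold change of -0.35 ± 0.126 (SE; edgeR adjusted p = 0.322). Slc25a20, the carrier of acylcarnitines across the inner membrane, averaged 167.0 ± 23.7 CPM in RetSat ko and 191.0 ± 29.8 CPM in control (SD, n = 5 each). Cpt2, which rebuilds acyl-CoA in the matrix, averaged 237.6 ± 21.7 CPM in RetSat ko and 266.4 ± 28.5 CPM in control. Crot, the peroxisomal octanoyltransferase, averaged 283.0 ± 54.8 CPM in RetSat ko and 331.1 ± 28.6 CPM in control. For these 3 genes the edgeR adjusted p lay between 0.478 and 0.543.

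Within mitochondrial beta-oxidation, 10 of 10 genes were below 0 (median log2 fold change -0.20), and 3 had an unadjusted p under 0.05. Acadm (chromosome 3, 153627994 to 153650269, minus strand) encodes the medium-chain acyl-CoA dehydrogenase. It had 233, 202, 194, 207 and 202 CPM in RetSat ko, against 246, 221, 258, 231 and 226 CPM in control. RetSat ko 2 to 5 lay below every control, and RetSat ko 1 lay within the control range. Its log2 fold change was -0.19 ± 0.0721 (SE; edgeR adjusted p = 0.338).

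Acadvl (chromosome 11, 69901009 to 69906237, minus strand), the very long-chain dehydrogenase of the inner membrane, also had RetSat ko 2 to 5 below every control. It had 278, 237, 219, 270 and 270 CPM in RetSat ko, against 299, 281, 324, 275 and 287 CPM in control. Again only RetSat ko 1 reached into the control range (log2 fold change -0.20 ± 0.0836 SE, edgeR adjusted p = 0.366). Dvl2, whose exons overlap those of Acadvl, was at 11.1 CPM in RetSat ko and 11.3 CPM in control. The long-chain dehydrogenase Acadl averaged 397.0 ± 54.0 CPM in RetSat ko and 479.8 ± 80.1 CPM in control, and the short-chain Acads 133.9 ± 11.8 CPM in RetSat ko and 142.3 ± 7.61 CPM in control (SD, n = 5 each). The log2 fold changes of these 2 were -0.27 ± 0.129 and -0.09 ± 0.0726 (SE), with edgeR adjusted p of 0.418 and 0.642.

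Hadha and Hadhb encode the alpha and beta subunits of the mitochondrial trifunctional protein, which carries out the later steps for long chains. They lie head to head on chromosome 5, Hadha on the minus strand (30323302 to 30360160) and Hadhb on the plus strand (30360246 to 30389591, GRCm39), with 85 bases between the annotated genes. Hadha had 632, 558, 529, 664 and 674 CPM in RetSat ko, against 729, 691, 822, 660 and 668 CPM in control. Hadhb had 144, 125, 117, 140 and 148 CPM in RetSat ko, against 169, 152, 170, 137 and 140 CPM in control. For both genes RetSat ko 3 was the lowest library, and control 3 was the highest. Their log2 fold changes were -0.22 ± 0.0988 and -0.19 ± 0.0886 (SE), with edgeR adjusted p of 0.396 and 0.413. The pseudogene Gm13910, nearly identical to Hadhb, was at 6.33 CPM in RetSat ko and 7.19 CPM in control.

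Since these subunit genes stood at similar fold changes and share 1 start region, the bases between their RefSeq start sites are shown (GRCm38.p6, chr5:30154981-30155252, plus strand, 272 bases). Capitals mark matches of GGGCGG, the GC box, searched on both strands.
Hadha to Hadhb: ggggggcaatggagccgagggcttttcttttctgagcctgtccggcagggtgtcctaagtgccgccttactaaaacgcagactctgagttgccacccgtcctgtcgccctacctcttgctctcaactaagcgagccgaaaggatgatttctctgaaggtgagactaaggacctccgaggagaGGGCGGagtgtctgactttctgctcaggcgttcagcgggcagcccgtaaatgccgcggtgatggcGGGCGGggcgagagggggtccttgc
The stretch held 2 such matches, 60.3% G and C, and 18 CG dinucleotides. GGGCGG was found in the windows of 20 of the 26 members with a RefSeq promoter (250 bases before to 50 after the start), against 35.7% of all 32851 windows. A direct repeat of AGGTCA with 1 base between the copies, the type of element that PPAR receptors bind, was searched on both strands with up to 2 mismatches. It matched in 2 of the 26 (Slc25a20 and Etfa), against 3.86% of all windows. A match is only a match of letters.

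Hadh (chromosome 3, 131027068 to 131065750, minus strand), the short-chain hydroxyacyl-CoA dehydrogenase, was the member with the most reads. It had 1293, 1058, 1092, 1102 and 1080 CPM in RetSat ko, against 1454, 1279, 1384, 1137 and 1268 CPM in control. RetSat ko 1 stood apart from the other RetSat ko libraries and within the control range (log2 fold change -0.21 ± 0.0992 SE, edgeR adjusted p = 0.412). Acaa2, the mitochondrial thiolase, averaged 524.9 ± 65.8 CPM in RetSat ko and 606.6 ± 39.9 CPM in control (SD, n = 5 each), with 4 RetSat ko libraries below every control. The mitochondrial auxiliary enzymes for unsaturated chains stood nearer to 0 than Hadh and Acaa2, as did Acads. Eci1, an enoyl-CoA isomerase, had a log2 fold change of -0.08 ± 0.0835 (SE; edgeR adjusted p = 0.730), and Decr1, a dienoyl-CoA reductase, -0.12 ± 0.0666 (SE; edgeR adjusted p = 0.474).

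The electron transfer flavoprotein takes electrons from the acyl-CoA dehydrogenases, and Etfdh passes them on to ubiquinone. Etfa averaged 324.2 ± 28.4 CPM in RetSat ko and 350.7 ± 19.4 CPM in control, and Etfdh 214.4 ± 26.2 CPM in RetSat ko and 245.1 ± 23.1 CPM in control (SD, n = 5 each). Etfb, the partner subunit of Etfa, was the only member with a positive log2 fold change (0.07 ± 0.0772 SE, edgeR adjusted p = 0.756). It had 70.2, 61.1, 60.0, 56.6 and 63.7 CPM in RetSat ko, against 64.3, 59.1, 62.8, 51.2 and 60.3 CPM in control, so the groups overlapped over most of their range. Its sign turned without the 4 libraries highest in pancreatic acinar transcripts (log2 fold change -0.046). Gm45233, which shares exons with Etfb, was at 0.00904 CPM in RetSat ko and 0.0106 CPM in control. A read that overlaps both genes equally has no gene of largest overlap. These values therefore do not show how many reads of the shared exons were lost.

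**Figure D2:**
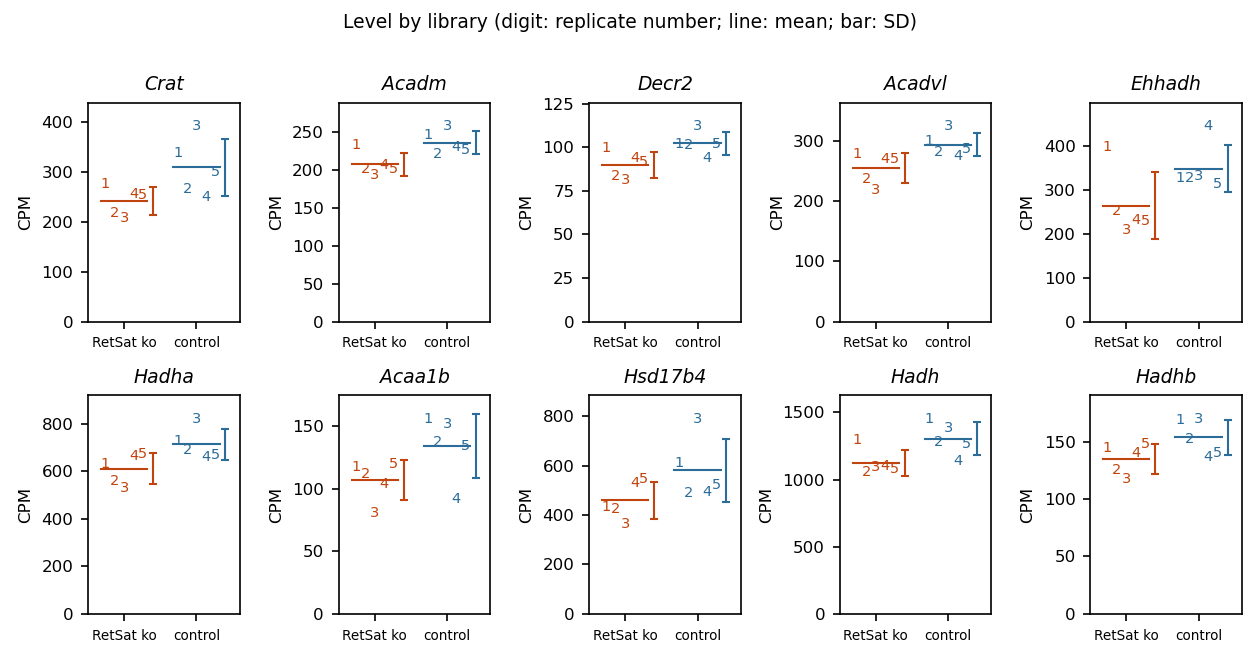
CPM of the 10 members with the smallest unadjusted p in the 5 RetSat ko (left) and 5 control libraries; digits are replicate numbers, lines are means and bars are SD. In every panel the groups overlap, often through RetSat ko 1, and control 3 is the highest library in 7 of them.

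Peroxisomal beta-oxidation also came out below 0 for 9 of 9 genes, with a median log2 fold change of -0.21, and 4 had an unadjusted p under 0.05. Ehhadh (chromosome 16, 21580037 to 21606557, minus strand) encodes the L-bifunctional enzyme and had the most negative value of all members. It had 398, 252, 209, 232 and 228 CPM in RetSat ko, against 327, 326, 331, 445 and 314 CPM in control. RetSat ko 2 to 5 lay below every control, whereas RetSat ko 1 was the second highest library of the 10. The log2 fold change was -0.40 ± 0.171 (SE; edgeR adjusted p = 0.382). Without RetSat ko 1 it was -0.60 ± 0.107, and Ehhadh passed the threshold as the only member to do so (edgeR adjusted p = 0.0263). In that fit 2.50% of all 19001 genes were called lower and 1.95% higher, so 1 of 30 is close to the background.

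Hsd17b4 (chromosome 18, 50261268 to 50329336, plus strand) encodes the D-bifunctional enzyme, which performs the same steps on the other stereoisomer. It had 434, 425, 365, 528 and 544 CPM in RetSat ko, against 612, 489, 790, 492 and 521 CPM in control. RetSat ko 1, 2 and 3 lay below every control, and control 3 stood far above the other controls. The log2 fold change was -0.34 ± 0.152 (SE; edgeR adjusted p = 0.401). Unlike Ehhadh, RetSat ko 1 was low in Hsd17b4, so the 2 bifunctional enzymes ordered the libraries differently.

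The thiolases Acaa1a (119168742 to 119179365, plus strand) and Acaa1b (118977091 to 118986161, minus strand), shown by sequence above, cleave the shortened chain in peroxisomes. Acaa1a had 310, 260, 275, 256 and 268 CPM in RetSat ko, against 314, 238, 362, 326 and 350 CPM in control. Acaa1b had 117, 112, 80.2, 104 and 120 CPM in RetSat ko, against 156, 137, 152, 91.8 and 134 CPM in control. In each copy 1 control lay among the lowest libraries, control 2 for Acaa1a and control 4 for Acaa1b. The log2 fold changes were -0.22 ± 0.109 and -0.33 ± 0.146 (SE), with edgeR adjusted p of 0.441 and 0.401.

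Decr2 (chromosome 17, 26300182 to 26309311, minus strand), the peroxisomal dienoyl-CoA reductase, had 99.3, 83.2, 81.1, 93.7 and 91.6 CPM in RetSat ko, against 102, 101, 112, 93.8 and 102 CPM in control. Its RetSat ko libraries 2 to 5 lay below every control, RetSat ko 4 only just (log2 fold change -0.18 ± 0.0719 SE, edgeR adjusted p = 0.344). Abcd3, the membrane transporter that brings acyl-CoA into peroxisomes, averaged 606.1 ± 81.8 CPM in RetSat ko and 703.2 ± 67.7 CPM in control (SD, n = 5 each). Pex11a, a membrane protein of peroxisome division, averaged 74.3 ± 8.41 CPM in RetSat ko and 80.6 ± 16.1 CPM in control. Ech1, a dienoyl-CoA isomerase, and Eci2, an enoyl-CoA isomerase, had log2 fold changes of -0.15 ± 0.101 and -0.07 ± 0.0840 (SE). The edgeR adjusted p of these 4 lay between 0.453 and 0.753.

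Acyl-CoA thioesterases release free fatty acids from CoA, Acot1 in the cytosol, Acot2 in mitochondria and Acot8 in peroxisomes. Acot1 had 44.5, 50.8, 42.8, 80.9 and 89.8 CPM in RetSat ko, against 80.0, 82.1, 82.2, 50.5 and 67.8 CPM in control. RetSat ko 1 to 3 were low together while RetSat ko 4 and 5 matched or exceeded the controls, and its coefficient of variation in RetSat ko (35.5%) was the largest of the members. Acot2 had 19.0, 18.9, 16.2, 25.5 and 25.8 CPM in RetSat ko, against 27.9, 25.4, 28.7, 18.6 and 22.3 CPM in control, with the same split among the RetSat ko libraries and control 4 again lowest of its group. The log2 fold changes were -0.23 ± 0.237 and -0.22 ± 0.151 (SE), with edgeR adjusted p of 0.720 and 0.572. Acot8 averaged 56.9 ± 4.45 CPM in RetSat ko and 59.8 ± 2.81 CPM in control (SD, n = 5 each), the log2 fold change nearest to 0 among the members below it (-0.07 ± 0.0660 SE, edgeR adjusted p = 0.684).

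**Figure D3:**
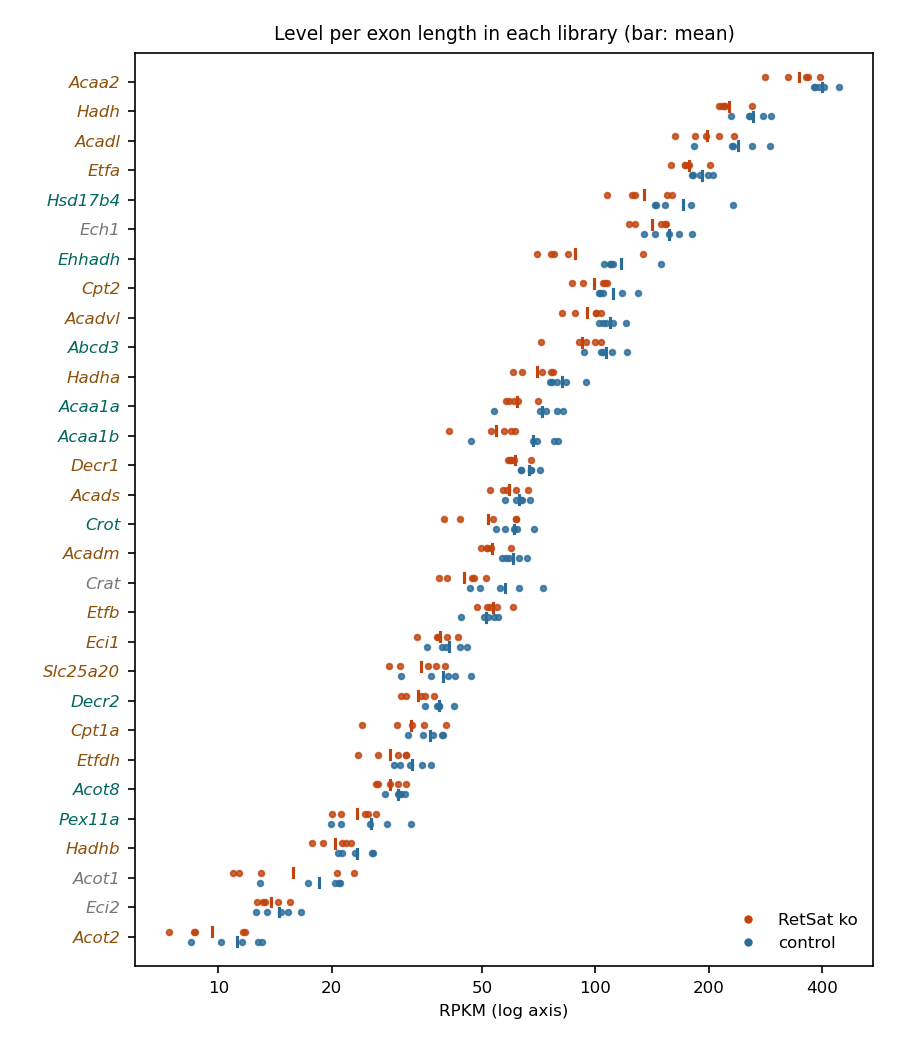
RPKM of each gene in the 5 RetSat ko (upper row of each gene) and 5 control libraries (lower row) on a log axis; short bars are means, and label colours give the location as in the plot of fold changes. Mean levels run from 346 (Acaa2) to 9.59 (Acot2) RPKM in RetSat ko and from 400 to 11.2 RPKM in control.

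Levels per exon length (RPKM, CPM per 1000 bases of exon) allow only a rough comparison of the genes with each other. The length joins all annotated exons of a gene, so it can exceed that of a transcript. For Hadhb it was 6595 bases, against 2033 in the transcript compared above, while for Acot2 both were 2196. Sums and ratios of RPKM given below carry the same limit. Acaa2 led in both genotypes, with 346 ± 43.4 RPKM in RetSat ko and 400 ± 26.3 RPKM in control (SD, n = 5 each). Hadh followed with 226 ± 19.2 RPKM in RetSat ko and 262 ± 24.3 RPKM in control, and Acadl with 198 ± 26.9 RPKM in RetSat ko and 239 ± 40.0 RPKM in control, a pair whose levels did not differ beyond their spread. Among peroxisomal genes Hsd17b4 had the highest RPKM, with 135 ± 22.1 RPKM in RetSat ko and 171 ± 37.3 RPKM in control. Ehhadh had 88.5 ± 25.7 RPKM in RetSat ko and 117 ± 18.2 RPKM in control, and Abcd3 91.9 ± 12.4 RPKM in RetSat ko and 107 ± 10.3 RPKM in control. Abcd3 was thus second in RetSat ko and Ehhadh second in control, within their spread in both. Hadhb, the subunit with the nearly identical pseudogene, was listed at 20.4 ± 2.03 RPKM in RetSat ko and 23.3 ± 2.32 RPKM in control, below its partner Hadha with 70.0 ± 7.41 RPKM in RetSat ko and 81.8 ± 7.60 RPKM in control. Acot2 was lowest, with 9.59 ± 1.95 RPKM in RetSat ko and 11.2 ± 1.90 RPKM in control.

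The 2 organelles were set side by side by the medians, counts and summed levels of their genes. The median log2 fold change was -0.19 for the 17 mitochondrial genes, -0.22 for the 9 peroxisomal genes and -0.19 for the 4 others. In lists of related genes, which include some of very low level, the median was -0.04 for 20 genes listed as mitochondrial and -0.22 for 14 listed as peroxisomal. The mitochondrial list also holds genes of propionyl-CoA breakdown (Pcca, Pccb and Mcee). These lists are unlike in makeup, so their medians do not compare the organelles. Unadjusted p values under 0.05 were reached by 3 of 17 mitochondrial genes (Acadm, Acadvl and Hadha) and by 4 of 9 peroxisomal genes (Ehhadh, Hsd17b4, Acaa1b and Decr2), all lower in RetSat ko, against 5.45% of all tested genes and 11.9% of the equally abundant ones. Summed RPKM of the mitochondrial genes was 1759, 1550, 1400, 1613 and 1689 in RetSat ko 1 to 5, against 1919, 1754, 2024, 1641 and 1762 in control 1 to 5. The sum of the peroxisomal genes was 649.3, 538.7, 468.3, 588.5 and 602.0 in RetSat ko, against 708.6, 630.9, 798.2, 648.1 and 658.9 in control. In both sums RetSat ko 3 was lowest and control 3 highest, and RetSat ko 1 lay within the control range. The peroxisomal sum came to 35.5 ± 1.39% of the mitochondrial sum in RetSat ko and to 37.9 ± 1.57% in control (SD, n = 5 each). This share ran from 33.5% to 36.9% in RetSat ko and from 35.97% to 39.5% in control, so the groups overlapped. No test was made of the difference between the organelles, for the reason given above.

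**Figure D4:**
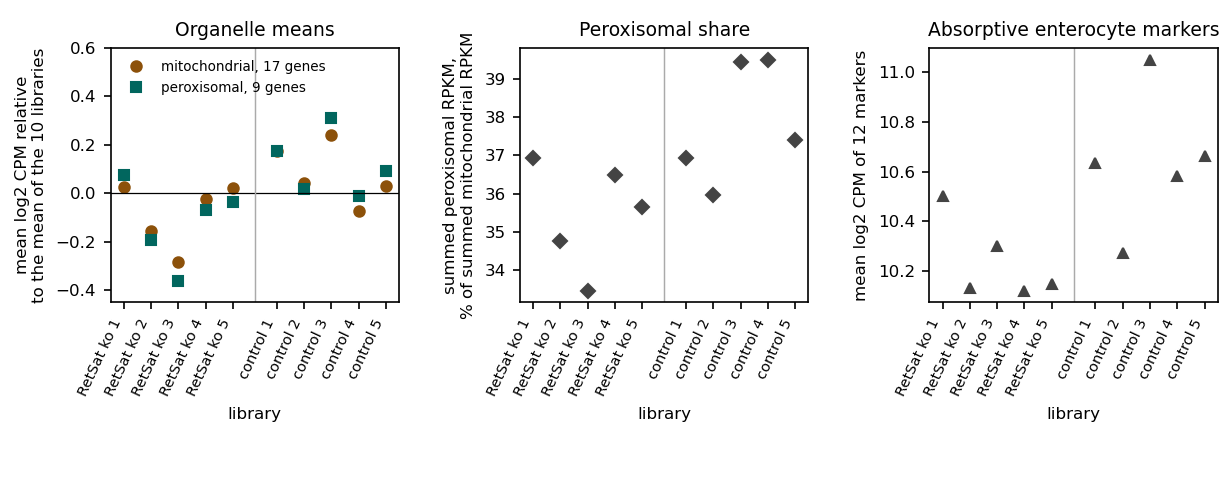
Each library's mean log2 CPM of the mitochondrial (circles) and peroxisomal genes (squares) relative to the mean of the 10 libraries, the peroxisomal share of summed RPKM, and the mean log2 CPM of 12 enterocyte markers, with RetSat ko left of control. RetSat ko 3 is lowest and control 3 highest for both organelles, while the enterocyte marker mean is highest in control 3 (11.05) and lowest in RetSat ko 4 (10.12), with RetSat ko 3 second highest of its group (10.30).

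Single libraries carried much of the pattern across members. RetSat ko 3 was the lowest of the 10 libraries for 25 of 30 members, and control 3 the highest for 22 of 30. RetSat ko 1 was the lowest for 0 members and the highest for 2 (Acot8 and Etfb). The median of the 17 mitochondrial genes was -0.13 without RetSat ko 3 and -0.15 without control 3, and that of the 9 peroxisomal genes -0.15 and -0.17. RetSat ko 3 held the highest summed level of 8 Paneth cell markers (5134 CPM, against 2114 to 2848 CPM in the other RetSat ko libraries and 1110 to 3444 CPM in control). It also held the highest sum of 9 smooth muscle markers (810 CPM), and control 3 the lowest (194 CPM). The part of these cells in the result was not tested.

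**Figure D5:**
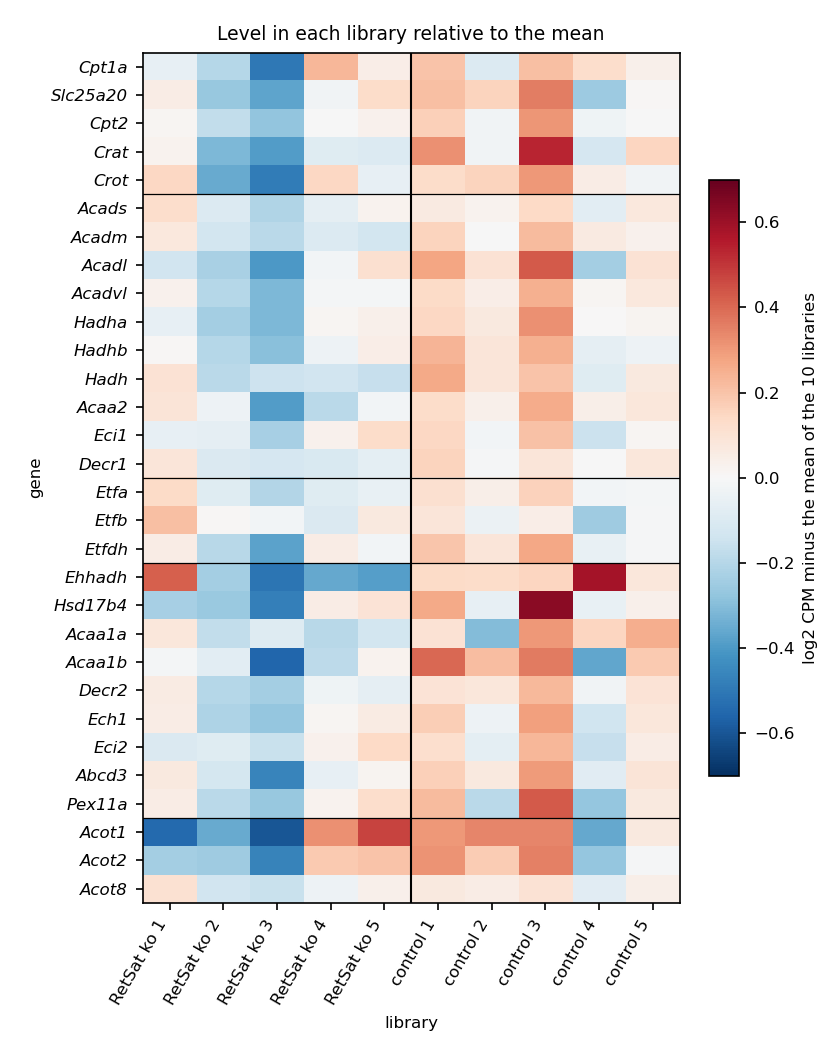
Log2 CPM of each gene in each library minus the mean of the 10 libraries, with RetSat ko left of the line and control right of it, and genes ordered by role. The RetSat ko 3 column is blue in 30 of 30 rows, and the control 1 and control 3 columns are red in 30 of 30. All other columns hold both colours, RetSat ko 2 with 29 blue rows and control 4 with 22.

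Markers of absorptive enterocytes leaned the same way as the members. All 12 markers listed (Sis, Lct and other brush border genes) had a negative log2 fold change, with a median of -0.41. An unadjusted p under 0.05 was reached by 6 of them, and none passed the threshold (edgeR adjusted p from 0.314 to 0.754). Their summed level was 18142 to 25768 CPM in RetSat ko and 21353 to 33461 CPM in control. RetSat ko 1 was the highest of its group and control 3 the highest of all, and no marker was at 0. The order of libraries was that of the members only in part. In the mean log2 CPM of the markers and of both organelles, control 3 was highest of all and RetSat ko 1 highest of its group. RetSat ko 3, lowest for both organelles, was second highest of its group in the mean log2 CPM of the markers (10.30). Control 4, lowest of the controls in the mean log2 CPM of both organelles, was at 10.58, above control 2 (10.27). In tissue RNA, fewer cells of a type and less RNA per cell cannot be told apart. With the mean log2 CPM of these markers as a covariate, 24 of 30 members were below 0 (49.9% of all genes). The medians were then -0.09 for the mitochondrial and -0.10 for the peroxisomal genes. The edgeR adjusted p of the members lay between 0.969 and 0.998. That covariate itself differed by genotype, with a mean of 10.24 ± 0.163 in RetSat ko and 10.64 ± 0.278 in control (SD). Part of any genotype difference therefore goes to the covariate, whatever moved the markers. The SE rose for Hsd17b4 (0.152 to 0.203) and every other member but Acaa1a (0.109 to 0.0960), which also raises p. Whether enterocyte content accounts for the lower values of the members cannot be read from this fit and was not tested. On the other side, all 12 crypt and cell cycle markers were positive (median 0.31), with summed levels of 796 to 1182 CPM in RetSat ko and 756 to 967 CPM in control. Of these, 8 had an unadjusted p under 0.05 and none passed. All 8 Paneth cell markers were positive too (median 0.83), with summed levels of 2114 to 5134 CPM in RetSat ko and 1110 to 3444 CPM in control; 6 had an unadjusted p under 0.05 and none passed. The part of crypt and Paneth cells in the members' values was not tested.

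Further genes of these and adjoining pathways were taken from lists of related genes. Below 0 were 46.1% of all tested genes, and 63.1% of those at least as abundant as the lowest member (22.8 CPM). At an unadjusted p under 0.05 (edgeR), 5.45% of all tested genes were lower and 6.79% higher. Among the equally abundant genes 11.9% were lower. The counts of every list below are to be read beside these shares. Of 14 tested other genes of peroxisomal fatty acid oxidation, 11 were below 0 (median -0.22) and 0 passed, with 3 lower and 0 higher at an unadjusted p under 0.05. Slc27a2, which activates very long chains, averaged 244.3 ± 42.3 CPM in RetSat ko and 335.9 ± 64.8 CPM in control (log2 fold change -0.46 ± 0.151 SE, edgeR adjusted p = 0.313). Of 20 genes listed as other mitochondrial oxidation, 13 were below 0 (median -0.04), with 3 lower and 1 higher at an unadjusted p under 0.05 and 0 past the threshold. Acad11, an acyl-CoA dehydrogenase of long chains, averaged 205.1 ± 36.2 CPM in RetSat ko and 276.9 ± 21.0 CPM in control (-0.43 ± 0.111 SE, edgeR adjusted p = 0.291). Mcee, of propionyl-CoA breakdown, averaged 21.3 ± 1.22 CPM in RetSat ko and 18.8 ± 1.08 CPM in control (0.18 ± 0.0666 SE, edgeR adjusted p = 0.331).

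Genes listed under peroxisome assembly, a list that also holds Cat, were mixed, with 13 of 19 below 0 (median -0.07) and 0 past the threshold. The shares below 0 were 46.1% of all tested genes and 63.1% of those at least as abundant as the lowest member. Cat, the catalase that removes hydrogen peroxide in peroxisomes, averaged 455.9 ± 64.4 CPM in RetSat ko and 615.8 ± 102 CPM in control (log2 fold change -0.43 ± 0.129 SE, edgeR adjusted p = 0.291). All 5 of its RetSat ko libraries lay below every control, which held for 0.729% of all tested genes. Of 13 regulators, 10 were below 0 (median -0.09) and 0 passed. Ppara, the gene of PPAR alpha, averaged 18.9 ± 3.18 CPM in RetSat ko and 27.5 ± 6.03 CPM in control (-0.54 ± 0.161 SE, edgeR adjusted p = 0.292). Its coactivator gene Ppargc1a averaged 41.8 ± 8.08 CPM in RetSat ko and 52.4 ± 6.79 CPM in control (-0.33 ± 0.130 SE, edgeR adjusted p = 0.355). Of 5 ketone body genes, 4 were below 0 (median -0.16) and 0 passed. Acat1, a mitochondrial thiolase, averaged 323.0 ± 23.0 CPM in RetSat ko and 362.9 ± 45.2 CPM in control (-0.17 ± 0.0947 SE, edgeR adjusted p = 0.487).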

How the data were processed

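The authors deposited unnormalized read counts by gene for 10 jejunum libraries, which were grouped by the genotype in the labels. Per the submitters' processing notes, the authors trimmed reads with Trimmomatic and aligned them with STAR to GRCm39. Per the file headers, featureCounts 2.0.1 counted reads over the exons of GENCODE M28, each read going to the gene of largest overlap, with no option for strand, pairs or reads with several alignments. Symbols were matched by identifier for 52081 of 55414 genes (94.0%).

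The genotypes were compared in R 4.3.3 by edgeR 4.0.16: filterByExpr kept 18654 genes, TMM set the scaling, and a robust quasi-likelihood fit with genotype alone gave p-values, adjusted by Benjamini-Hochberg over those genes (threshold 0.05). SE is the log2 fold change over the root of the F value. The edgeR step was tested on simulated counts with planted changes larger than that of any member in the main fit. It therefore does not show whether changes of the members' size would be found. Alternatives used limma 3.58.1, DESeq2 1.42.0 and the settings of the closing section. The lowest chi-square per degree of freedom over 45 library pairs was 55.7, so no pair was a duplicate. Transcripts were compared with blastn 2.17.0 (identity of at least 90% over 300 bases or more). Depth was 102844680 to 128730695 counts. Promoters came from RefSeq (GRCm38.p6) and matched 26 of 30 members. These builds differ from that of the counts, so gene positions are those of the files.

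The members, lists and alternatives were chosen with earlier results of these data known. All 30 members are named, with every library's value for the 10 of smallest p, Cpt1a and the near-identical pairs, and Etfb was added after its values were seen. Outside the members, the 2 genes of smallest p in each list were to be named, of which some are not reported here, and overlapping or nearly identical partners beside the member they touch.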

Additional observations from a re-analysis of the deposited data

Results flagged for a closer look

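In 4 of 60 groups of 5 libraries, 1 library stood far from the others of its group for a member, where chance alone gives about 1 in 20. Ehhadh was at 398 CPM in RetSat ko 1, against 209 to 252 CPM in the other RetSat ko libraries, and at 445 CPM in control 4, while the remaining controls lay between 314 and 331 CPM. Hadh was at 1293 CPM in RetSat ko 1, against 1058 to 1102 CPM in the other RetSat ko libraries. Decr1 was at 262 CPM in RetSat ko 1, against 228 to 236 CPM in the other RetSat ko libraries. RetSat ko 1 and control 4 were both among the 4 libraries richest in pancreatic acinar transcripts, with summed levels of 15 markers of 597 and 164 CPM, as were RetSat ko 2 (3262 CPM) and control 5 (338 CPM), which did not stand apart in Ehhadh. The part of these cells was not tested.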

How the results depend on the processing

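Over 20 alternatives, 593 of 600 single member values kept both sign and side of the threshold. The number of genes called over all was 6, and it was 123 with DESeq2, 3 with the enterocyte covariate and 5 to 846 when each library was left out in turn, 846 being without RetSat ko 1. Members called were 0 in every setting but that one, where 1 (Ehhadh) was called, so leaving out libraries gave 0 to 1. The smallest adjusted p of a member was 0.155 with DESeq2 and 0.330 with limma-voom, and 11 and 9 members had an unadjusted p under 0.05 there, against 8 as reported. That count was 3 with the replicate block, 0 with the enterocyte covariate, 2 without the 3 B cell-rich libraries, 15 without the acinar-rich ones, 15 with no filter, 11 with the 1 CPM filter, 10 with upper-quartile and 8 with RLE factors. The share of all genes at that level was not counted in these settings, so the counts of members may move with it. Leaving out each library gave medians of -0.23 to -0.13 for the mitochondrial and -0.26 to -0.15 for the peroxisomal genes. Signs turned with the enterocyte covariate for Acads (0.0013), Acaa1a (0.0805), Ech1 (0.0060), Eci2 (0.0185) and Pex11a (0.15), and for Etfb when the 4 acinar-rich libraries were dropped (-0.0463), and the cause was not tested. Replicate numbers gave no sign of pairing the samples. Deviations of same-numbered libraries correlated at -0.15 to 0.0021, and 0 of 5 correlated best with its own number. Such correlations cannot show that the samples were unpaired. With the replicate block 4 genes and 0 members were called (median -0.19 mitochondrial, -0.22 peroxisomal).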

Other observations

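The ratio of the electron transfer flavoprotein subunits, Etfa over Etfb in RPKM, was chosen after its values were seen and was not tested. It was 3.34, 3.30, 3.09, 3.55 and 3.23 in RetSat ko 1 to 5, against 3.59, 3.73, 3.80, 4.11 and 3.51 in control 1 to 5, so that RetSat ko 4 alone lay within the control range. The trifunctional protein subunits, Hadha over Hadhb, gave 3.43 ± 0.101 in RetSat ko and 3.51 ± 0.165 in control (SD, n = 5 each). The bifunctional enzymes, Ehhadh over Hsd17b4, gave 1.05 in RetSat ko 1 and 1.03 in control 4, against 0.478 to 0.677 in the other RetSat ko libraries and 0.478 to 0.760 in the other controls.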
